A study of Danio rerio with 16 samples.

Results

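A set of 29 genes was nearly silent in uninjured zebrafish ventricles and was read in every cryoinjured library. The 29 were chosen by their measured levels from 32520 Ensembl gene IDs: a mean of at most 0.5 counts per 1000000 counts (CPM) in both sham groups and of at least 3 CPM in both injured groups. Another 5 IDs met these limits and were left out by name, namely nppal, COL11A1, ccl35.1, il11a and CENPI. Of the 29, 22 carry a gene name and 7 carry only a clone name. Because the limits chose the genes on the contrast of injury with sham, their rise after injury is described here without a test. What was tested is the contrast of mutant with wild type, which the limits did not compare, although they bounded the levels in both genotypes.

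Messenger RNA of adult ventricles was sequenced in 16 libraries, 4 in each of 4 groups. Injured mutants and sham mutants carried ankrd1abns502, a CRISPR/Cas9 allele of ankrd1a, which encodes an ankyrin repeat protein of striated muscle. Injured wild types and sham wild types were AB (Oregon) fish. A probe chilled in liquid nitrogen had touched the apex of the injured hearts for 25 s, a probe at room temperature had been used in the sham groups, and all fish were sampled after 7 days. Every library was a pool of 3 ventricles, so the spread between libraries is a spread between pools, and the line is a single mutant allele.

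The adult zebrafish heart regenerates after cryoinjury. The dead muscle is first invaded by immune cells and filled with a transient scar, the epicardium and endocardium are activated, and cardiomyocytes at the wound border divide. Genes of dividing cells, secreted signals of the wound and genes of invading cells can be read in an injured ventricle that a resting one hardly transcribes. In bulk RNA such as this, fewer cells of a type and less RNA per cell cannot be told apart.

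Total counts lay between 5623732 and 12254728 per library. The cardiac light chain gene MYL7 stood at 8357 to 19166 CPM in all 16 libraries. ANKRD1 (ENSDARG00000075263), an ID with the symbol of the mutated gene, averaged 25.3 ± 9.78 CPM in injured mutant pools and 28.9 ± 19.2 CPM in injured wild-type pools. Its sham means were 0.402 ± 0.239 CPM in mutant pools and 1.57 ± 1.70 CPM in wild-type pools (SD, n = 4 each). Another ID with that symbol (ENSDARG00000076192) averaged 0.169 CPM in injured mutant pools and 0.0725 CPM in injured wild-type pools. Its sham means were 0.174 CPM in mutant pools and 0.120 CPM in wild-type pools. Which of these IDs is ankrd1a is not given in the sources used here. ENSDARG00000075263 missed the limits through the sham wild types alone. The level of neither ID checks the genotype, since the labels do not say how the allele changes the transcript. Markers of some other cell types moved with injury (edgeR adjusted p below 0.05). Of 17 tested macrophage genes, 16 were higher in injured than in sham mutant pools. In wild-type pools 16 were higher and 1 was lower. Of 17 fibroblast genes, 14 were higher in each genotype. Over all genes tested, 16.5% were higher in mutants and 13.9% in wild types. Of all 14986 genes tested, 1857 were lower in mutants and 1722 in wild types. Of 23 endothelial and endocardial genes tested, 4 were higher and 3 lower in mutants, and 4 higher and 5 lower in wild types. Their share of higher genes was near that over all genes tested, and nothing is read from these counts. What part such cells have in the levels below was not tested.

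The members were rare transcripts even after injury. Their summed level was 141 ± 33.8 CPM in injured mutant pools, 143 ± 35.5 CPM in injured wild-type pools, 8.19 ± 2.88 CPM in sham mutant pools and 7.02 ± 2.06 CPM in sham wild-type pools (SD, n = 4 each). With TMM scaling it was 127 ± 21.2 CPM in injured mutant pools and 118 ± 25.6 CPM in injured wild-type pools. The TMM-scaled sham sums were 9.44 ± 2.86 CPM in mutant pools and 7.98 ± 2.18 CPM in wild-type pools. No member had more than 10 counts in any sham library, and 58 of the 232 sham values were 0. No injured value was 0, and single injured values ran from 2 to 162 counts. In 27 of 29 members all 8 injured libraries stood above all 8 sham libraries, against a background of 13.3% of the 14986 genes tested; the exceptions were hivep3a and si:ch211-194m7.4. All 29 were called higher by edgeR's quasi-likelihood test (adjusted p below 0.05) in mutants, where the background is 16.5%, and in wild types, where it is 13.9%. These counts follow from the limits and show nothing further. The median log2 fold change of the members was 3.36 in mutants and 3.86 in wild types, beside -0.01 and 0.01 over all genes tested.

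**Figure D1:**
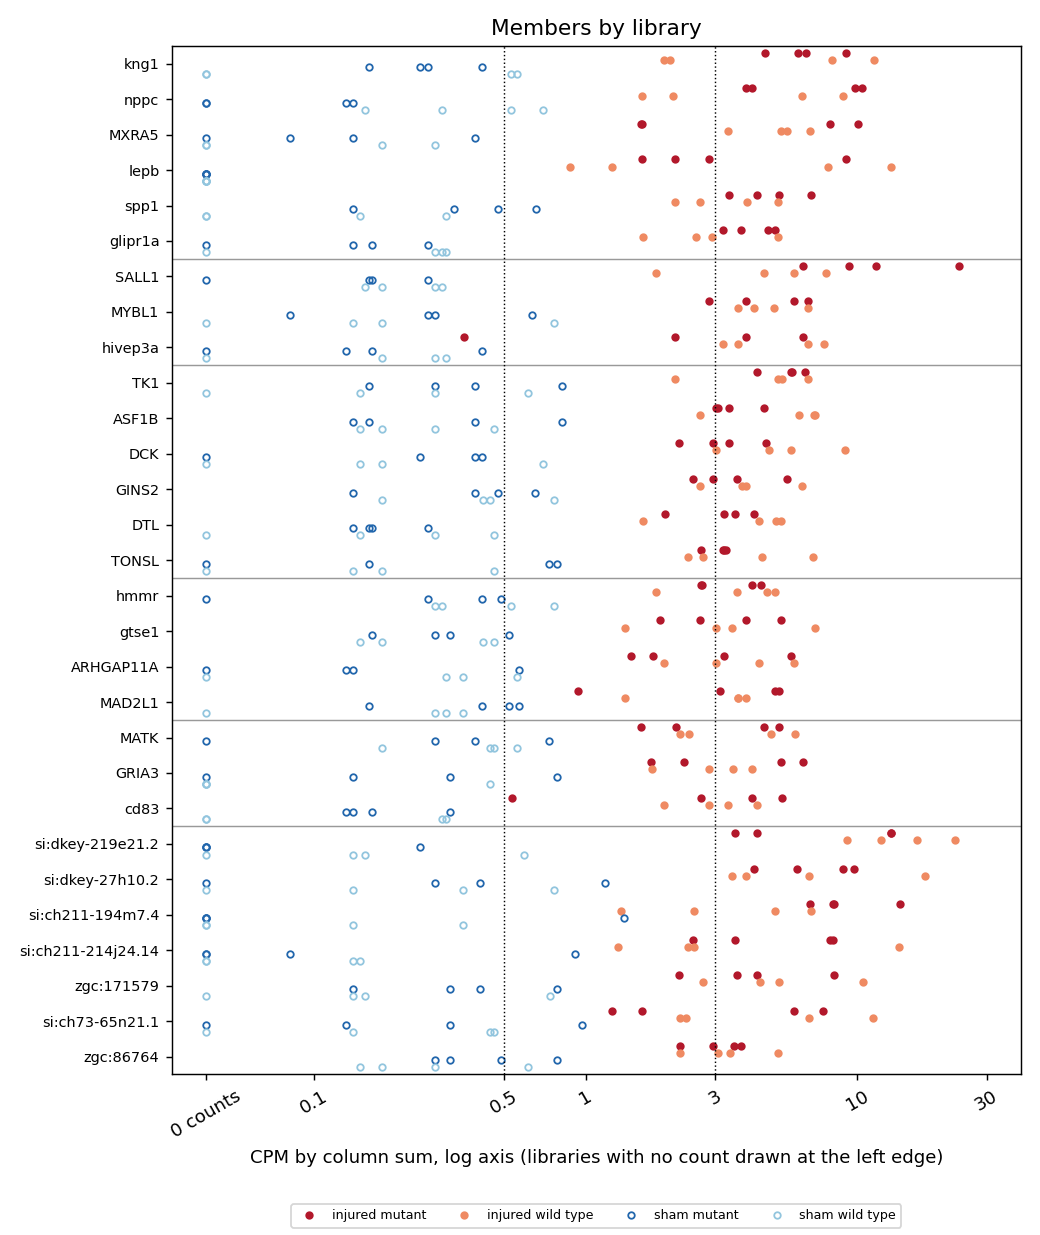
Level of each of the 29 members in each of the 16 libraries, in CPM on a log axis, with filled points for injured and open points for sham libraries and libraries without a count at the left edge; dotted lines mark the limits of 0.5 and 3 CPM. The injured points lie to the right of the sham points in 27 members, and hivep3a and si:ch211-194m7.4 each have libraries that overlap.

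The limits cut through a continuum of levels. Just inside the sham limit were hmmr, with a higher sham mean of 0.469 CPM, and zgc:86764, with 0.468 CPM. Just outside it were ARHGAP15 at 0.502 CPM and PRIMPOL at 0.506 CPM. Just inside the injured limit were GRIA3 and ARHGAP11A, with a lower injured mean of 3.05 CPM each. Just outside it were si:ch211-241b2.5 at 2.97 CPM and arid5a at 2.94 CPM. The limits also depend on the scaling of the libraries, because TMM factors were 1.00 to 1.26 in injured and 0.815 to 0.947 in sham libraries: with TMM scaling only 15 genes met the limits, all of them among the 29. When each of the 16 libraries was left out in turn, kng1, MYBL1, SALL1, MXRA5, si:dkey-219e21.2, ASF1B and TK1 met the limits every time. CPM values are not divided by gene length, so levels are compared between samples of a gene and not between genes.

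Among the 6 secreted proteins, lepb had no count in any sham library. It encodes leptin b, a hormone whose gene is known in zebrafish for being switched on in regenerating heart and fin. The lepb level was 1.61, 2.85, 9.12 and 2.14 CPM in the injured mutant libraries and 13.4, 0.877, 1.25 and 7.79 CPM in the injured wild-type libraries. In each genotype a few pools were several times higher than the others, replicate 3 of the mutants and replicates 1 and 4 of the wild types. With the floor set at 3 counts per sham library, the mean CPM by column sum was at least 10.3-fold higher in injured than in sham mutants. In wild types it was at least 12.6-fold higher. TMM scaling would lower both bounds, since its injured means were 3.45 CPM in mutants and 4.81 CPM in wild types and it raises sham levels. Over all 8 sham libraries, 0 of 59446917 counts allows a level of up to 0.0505 CPM, by counting error alone. The paralog lepa averaged 1.04 CPM in injured mutant pools and 0.157 CPM in injured wild-type pools, had no count in sham libraries and fell under the filter on low counts. The leptin receptor gene lepr was present throughout, at a mean of 48.4 CPM in injured mutant pools, 52.4 CPM in injured wild-type pools, 31.7 CPM in sham mutant pools and 39.1 CPM in sham wild-type pools, and was not called for injury in either genotype (edgeR adjusted p 0.204 in mutants and 0.900 in wild types).

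C-type natriuretic peptide, a vasoactive peptide that acts mostly on neighbouring cells, is encoded by nppc. Its level was 3.89, 4.09, 9.86 and 10.4 CPM in injured mutant pools and 8.87, 1.61, 2.09 and 6.28 CPM in injured wild-type pools. In sham mutants it was 0.131, 0.139, 0 and 0 CPM, and in sham wild types 0.296, 0.697, 0.532 and 0.154 CPM. In each genotype every injured library stood above every sham library. The natriuretic peptide genes nppa and nppb were already transcribed in sham ventricles. The related nppal, left out of the set by name, was not: it averaged 0.143 CPM in sham mutant pools and 0.229 CPM in sham wild-type pools. Expression of nppa averaged 2649 CPM in injured mutant pools, 1951 CPM in injured wild-type pools, 1845 CPM in sham mutant pools and 1439 CPM in sham wild-type pools, with no call for injury (edgeR adjusted p 0.659 in mutants and 0.970 in wild types). For nppb the log2 fold change with injury was 1.35 in mutants (edgeR adjusted p 0.0379) and 0.67 in wild types (adjusted p 0.317).

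Kininogen, the precursor of the kinin peptides of inflammation and best known as a plasma protein from liver, is encoded by kng1. It stood at 4.56, 6.05, 6.47 and 9.09 CPM in injured mutant pools and at 8.12, 2.05, 1.95 and 11.6 CPM in injured wild-type pools. The wild-type pools split as they did for lepb and nppc, with replicates 1 and 4 high and replicates 2 and 3 low. In sham libraries kng1 had at most 4 counts, with means of 0.271 CPM in sham mutant pools and 0.272 CPM in sham wild-type pools. Osteopontin, a secreted adhesion protein of macrophages and healing tissue, is encoded by spp1. The spp1 level was 4.29, 3.38, 5.15 and 6.77 CPM in injured mutant pools and 5.11, 3.95, 2.65 and 2.14 CPM in injured wild-type pools, with 1 to 5 counts in sham mutant pools and 0 to 2 in sham wild-type pools. Its injured pools spread less than those of lepb.

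**Figure D2:**
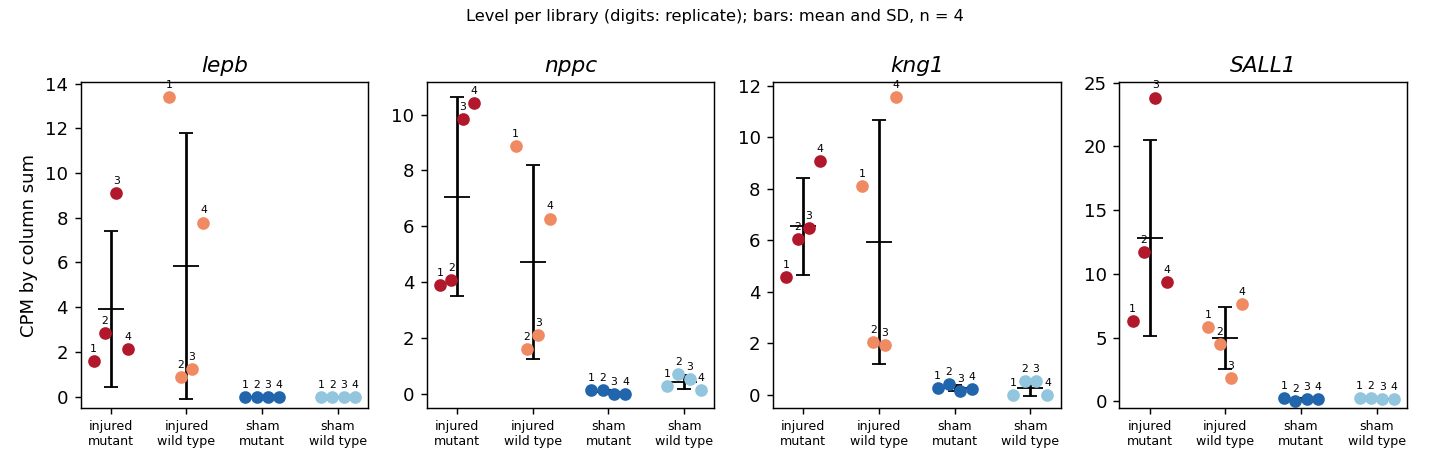
Level of lepb, nppc, kng1 and SALL1 in CPM in the 4 libraries of each group, with the replicate number beside each point and black bars for the mean and SD (n = 4). In injured wild types replicates 1 and 4 lie above replicates 2 and 3 in all 4 panels, and every sham library lies near 0.

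The last members with a secreted product were MXRA5, an adhesion proteoglycan linked to matrix remodelling, and glipr1a, of a cysteine-rich secretory protein family. MXRA5 had 1.61, 1.60, 7.94 and 10.1 CPM in injured mutant pools and 5.26, 6.72, 3.35 and 5.53 CPM in injured wild-type pools. The mutant pools thus fell into a low and a high pair, while the wild-type pools lay between them. Another ID with the symbol MXRA5 averaged 1.17 CPM in injured mutant pools, 1.48 CPM in injured wild-type pools, 0.161 CPM in sham mutant pools and 0.114 CPM in sham wild-type pools. For glipr1a the injured means were 4.16 ± 0.827 CPM in mutants and 3.06 ± 1.48 CPM in wild types (SD, n = 4 each). Outside the il, ccl and cxcl families, 90 other genes for signals and their receptors were tested. Of these, 26 were higher and 7 lower after injury in mutants, and 25 higher and 7 lower in wild types. Their medians were 0.24 and 0.30 on the log2 scale. The shares of higher genes over all genes tested were 16.5% in mutants and 13.9% in wild types.

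Of the 3 transcription factors, SALL1 (ENSDARG00000075891), a spalt-family zinc finger factor known in mammals from limb and kidney development, had 6.31, 11.7, 23.8 and 9.36 CPM in injured mutant pools and 5.86, 4.53, 1.81 and 7.66 CPM in injured wild-type pools. Sham libraries of both genotypes held at most 2 counts. By column sum, the means were at least 33.4-fold higher in injured than in sham mutants and at least 10.7-fold higher in injured than in sham wild types. TMM scaling would lower these bounds too, with injured means of 11.4 CPM in mutants and 4.09 CPM in wild types. Another ID with the same symbol (ENSDARG00000074319) averaged 112 CPM in injured mutant pools, 119 CPM in injured wild-type pools, 85.8 CPM in sham mutant pools and 88.7 CPM in sham wild-type pools. The files do not say which of the paralogs each ID is, and how reads shared between them were divided is not given in the sources used here. The related SALL4 was higher after injury in mutants (log2 fold change 1.61, edgeR adjusted p 0.0461) and in wild types (2.20, adjusted p 0.0140).

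MYBL1, a Myb factor known from germ cells and dividing cells, had 3.89, 6.58, 5.88 and 2.85 CPM in injured mutant pools and 4.96, 6.58, 4.18 and 3.64 CPM in injured wild-type pools, among the narrower spreads of the set. Its relative MYBL2, a driver of the cell division programme, rose by 3.15 on the log2 scale in mutants (edgeR adjusted p 8.96e-05) and by 4.01 in wild types (adjusted p 3.38e-05), and its sham mutant mean of 0.638 CPM lay above the limit. The large zinc finger factor gene hivep3a had 3.89, 0.356, 6.33 and 2.14 CPM in injured mutant pools and 6.62, 3.65, 3.21 and 7.54 CPM in injured wild-type pools. Replicate 2 of the injured mutants held 2 counts of it, below the highest sham library, which is why its groups overlapped. Of 51 other tested transcription factors of wound, mesenchyme and embryonic programmes, 20 were higher and 4 lower after injury in mutants. In wild types 19 were higher and 1 lower. The shares of higher genes over all genes tested were 16.5% in mutants and 13.9% in wild types.

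The 6 genes of DNA synthesis had the lowest median spread between pools of the 6 role groups. TK1, thymidine kinase, which salvages thymidine for DNA, had 6.44, 5.69, 5.74 and 4.28 CPM in injured mutant pools and 5.11, 6.58, 5.30 and 2.14 CPM in injured wild-type pools. DCK, deoxycytidine kinase of the same salvage route, had 2.95, 3.38, 2.21 and 4.63 CPM in injured mutant pools and 9.02, 5.70, 4.74 and 3.01 CPM in injured wild-type pools. Replicate 4 of the injured wild types was the lowest wild-type pool for both kinases. It was the lowest for all 6 genes, and their summed level was 14.4 CPM there and 29.4 to 37.7 CPM in the other 3 injured wild-type pools. In injured mutants the same sum lay between 19.7 and 24.2 CPM.

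ASF1B, a chaperone that hands histones to new DNA, averaged 3.51 ± 0.714 CPM in injured mutant pools and 5.68 ± 2.06 CPM in injured wild-type pools (SD, n = 4 each). Another ID with the symbol ASF1B was present in sham ventricles, and its means were 11.2 CPM in injured mutant pools, 10.9 CPM in injured wild-type pools, 5.90 CPM in sham mutant pools and 7.38 CPM in sham wild-type pools. GINS2, a subunit of the replicative helicase, averaged 3.64 ± 1.33 CPM in injured mutant pools and 4.15 ± 1.53 CPM in injured wild-type pools. TONSL, which repairs stalled replication forks, averaged 3.11 ± 0.294 CPM in injured mutant pools and 4.11 ± 2.06 CPM in injured wild-type pools. DTL, an adaptor that has the licensing factor Cdt1 degraded during replication, averaged 3.23 ± 0.928 CPM in injured mutant pools and 4.07 ± 1.67 CPM in injured wild-type pools. In each of these genes the injured ranges of both genotypes overlapped.

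The 4 mitotic members were ARHGAP11A, a GTPase-activating protein of cell division, hmmr, a spindle-associated hyaluronan receptor, gtse1, a microtubule protein of G2 and S phase, and MAD2L1, a spindle checkpoint protein. MAD2L1 had 0.939, 5.16, 5.00 and 3.12 CPM in injured mutant pools and 3.91, 3.65, 1.39 and 3.64 CPM in injured wild-type pools. For gtse1 the values were 1.88, 3.91, 2.65 and 5.26 CPM in injured mutant pools and 3.46, 7.02, 1.39 and 3.01 CPM in injured wild-type pools. Replicate 3 was the lowest injured wild-type pool for all 4 mitotic genes, and replicate 1 the lowest injured mutant pool for 3 of them. The mean of hmmr was 3.47 ± 0.922 CPM in injured mutant pools and 3.76 ± 1.42 CPM in injured wild-type pools. The mean of ARHGAP11A was 3.05 ± 1.93 CPM in injured mutant pools and 3.79 ± 1.69 CPM in injured wild-type pools (SD, n = 4 each).

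The wider programme of cell division moved in the same direction. Outside the cenp and kif families, 91 other genes of cell division were tested. Of these, 77 were higher and 0 lower after injury in mutants, and 80 were higher and 0 lower in wild types. Their median log2 fold changes were 2.30 and 2.41. The shares of higher genes over all genes tested were 16.5% in mutants and 13.9% in wild types. The proliferation marker mki67 averaged 24.3 CPM in injured mutant pools, 24.8 CPM in injured wild-type pools, 2.98 CPM in sham mutant pools and 2.49 CPM in sham wild-type pools, a log2 fold change of 2.63 in mutants (edgeR adjusted p 3.03e-05) and 2.82 in wild types (adjusted p 2.62e-05). Thymidylate synthase, TYMS, which makes thymidylate anew, rose by 3.36 in mutants (adjusted p 6.43e-05) and by 3.61 in wild types (adjusted p 5.78e-05). The mutant and wild-type comparisons with sham rest on separate libraries, but both take their spread from the same fit over all 16 libraries.

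The 3 immune or surface genes were cd83, a surface protein of activated antigen-presenting cells, MATK, a Csk-family kinase of blood cells, and GRIA3, a subunit of AMPA glutamate receptors. The cd83 level was 0.537, 2.67, 5.30 and 4.1 CPM in injured mutant pools and 2.86, 3.36, 1.95 and 4.27 CPM in injured wild-type pools. MATK had 2.15, 1.60, 4.56 and 5.17 CPM in injured mutant pools and 2.41, 4.82, 2.23 and 5.90 CPM in injured wild-type pools. In injured mutants both genes were lower in replicates 1 and 2 than in replicates 3 and 4. GRIA3 was also lower in those replicates, with 1.74, 2.31, 6.33 and 5.26 CPM in injured mutant pools, and had 2.86, 4.09, 3.49 and 1.76 CPM in injured wild-type pools. The summed level of the macrophage markers was 1210 to 2141 CPM in injured mutant pools, 1244 to 1587 CPM in injured wild-type pools, 430 to 710 CPM in sham mutant pools and 325 to 494 CPM in sham wild-type pools. Its part in the levels of these genes was not tested.

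The 7 members with clone names have no role that the files or tables give. The level of si:dkey-219e21.2 was 4.29, 13.3, 13.4 and 3.57 CPM in injured mutant pools and 23.0, 12.3, 9.20 and 16.6 CPM in injured wild-type pools, with at most 4 counts in a sham library. The level of si:ch211-194m7.4 was 6.71, 8.18, 8.24 and 14.3 CPM in injured mutant pools and 1.35, 5.00, 2.51 and 6.79 CPM in injured wild-type pools. Its 10 counts in sham mutant replicate 2 came to 1.39 CPM, above the lowest injured wild-type library. The level of si:dkey-27h10.2 was highest in replicate 2 of the injured wild types, at 17.8 CPM, and 3.46 to 6.66 CPM in the other 3. For zgc:171579 the same replicate was highest, at 10.5 CPM against 2.71 to 5.16 CPM in the others.

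Replicate 1 of the injured wild types was the highest pool for the next clones. There si:ch211-214j24.14 reached 14.3 CPM against 1.32 to 2.51 CPM in the other 3. Likewise si:ch73-65n21.1 reached 11.4 CPM against 2.23 to 6.66 CPM. The steadiest of the clones was zgc:86764, with means of 3.11 ± 0.675 CPM in injured mutant pools and 3.45 ± 1.21 CPM in injured wild-type pools (SD, n = 4 each).

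The spread of the members between injured pools was set beside that of genes within the same range of levels. The median coefficient of variation within an injured group was 0.494 over the 29 members, with a range of 0.278 to 0.956. It was 0.275, with quartiles of 0.210 and 0.360, over 4821 tested genes whose injured mean lay in the members' range of 3.13 to 12.0 CPM. All 29 members lay above that median and 20 above the upper quartile. The 4821 genes include the members and were taken by level alone, not by response to injury. What part the choice of the members by their rise has in this excess was not tested. Counting error alone gives a median of 0.180 for the members and 0.147 for the 4821 genes. By role the median was 0.545 for secreted proteins, 0.548 for transcription factors, 0.323 for DNA synthesis, 0.50 for mitosis, 0.481 for immune or surface genes and 0.577 for clones. The lowest single values belonged to TK1, at 0.278, and ASF1B, at 0.283, and the highest to lepb, at 0.956.

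**Figure D3:**
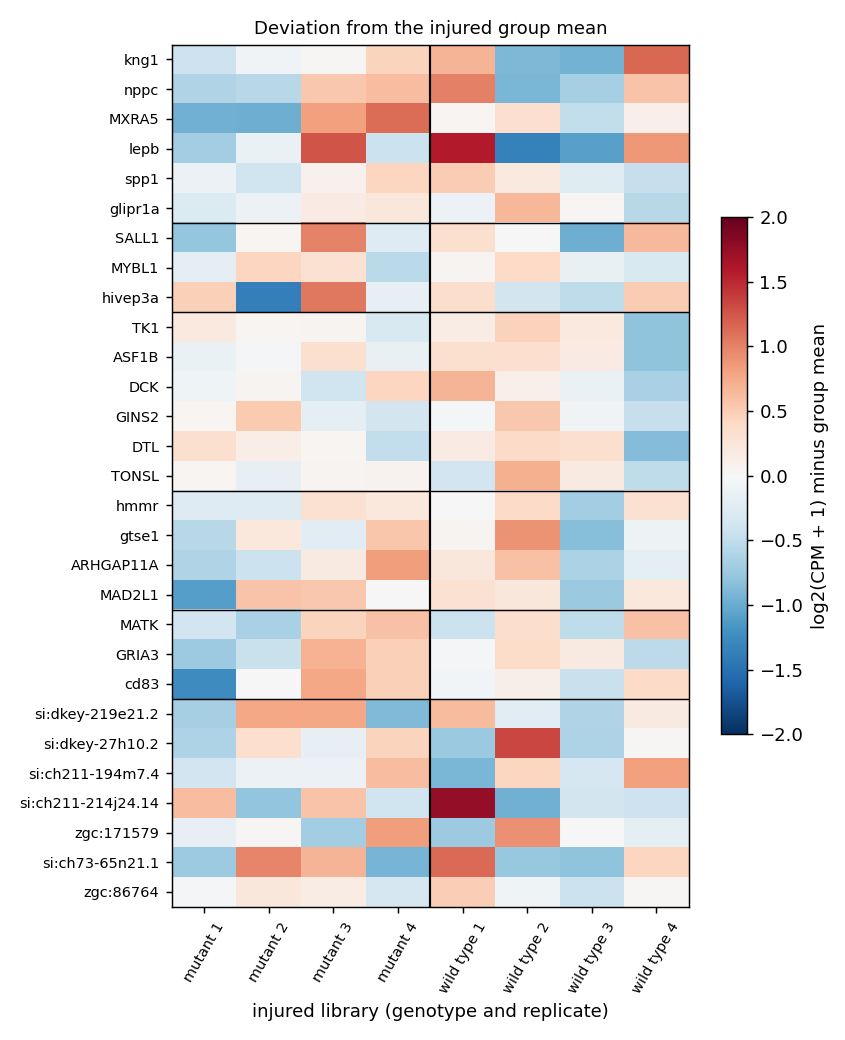
Deviation of log2(CPM + 1) from the mean of its injured group, with red for pools above and blue for pools below that mean, for the 29 members by role (separated by lines) in the 4 injured mutant and 4 injured wild-type libraries. The DNA synthesis genes are all lowest among wild types in replicate 4, the mitotic genes in replicate 3, and lepb, nppc and kng1 are low in replicates 2 and 3.

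Among the members, the injured wild-type pool that was lowest for the DNA synthesis genes was not the lowest for the mitotic genes. Other cell division genes, summed, were low in both of these pools, at 705 CPM in replicate 3 and 777 CPM in replicate 4. They stood at 1236 CPM in replicate 1 and 1167 CPM in replicate 2. Likeness was measured as Pearson's r of log2(CPM + 1), centred on each group, over the 8 injured libraries, which all pairs share together with their depth. The median r was 0.56 over the 15 pairs of DNA synthesis genes and 0.65 over the 6 pairs of mitotic genes, but 0.00 over the 24 pairs that joined a gene of each. Likeness also crossed roles. The median was 0.57 over 12 pairs of a mitotic with an immune or surface gene. It was 0.43 over 24 pairs of a mitotic with a secreted member and -0.08 over 36 pairs of a secreted with a DNA synthesis member. The closest pair of named genes was DTL and TK1 (r = 0.97). Among the signals, kng1 and nppc had r = 0.86 and lepb and nppc r = 0.85, whereas kng1 and TONSL moved oppositely, with r = -0.84. These values of r are a description of 8 libraries at low counts, with no background of other gene pairs of like level beside them. By symbol, 24 of the members could be placed on GRCz12tu, a zebrafish assembly with RefSeq genes. None of these 24 were neighbours there, and the closest pair, kng1 and nppc, had 46 protein-coding genes between them.

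Mutant and wild-type fish were then compared within injured ventricles. The median log2 fold change, mutant over wild type, was 0.02 over the 29 members and 0.00 over all genes tested. A single member, SALL1, was called (1 of 29), beside 2.56% of all genes tested. At an unadjusted p below 0.05 there were 2 members, beside 16% of all genes tested. In none of the 29 were the 4 mutant and 4 wild-type pools apart, beside 8.57% of all genes tested. The limit of 3 CPM in both injured groups keeps out genes read in only 1 genotype, so these counts cannot speak of such genes. The shares over all genes are also not matched to the members in level or spread. The members' median coefficient of variation was 0.494, beside 0.275 for genes in their range of levels. Nothing is read from the lower shares among the members.

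SALL1 averaged 12.8 ± 7.68 CPM in injured mutant pools and 4.97 ± 2.46 CPM in injured wild-type pools (SD, n = 4 each). Its log2 fold change was 1.46 (SE 0.38), with an adjusted p of 0.0483 by edgeR's quasi-likelihood test, and the pools overlapped: the lowest mutant pool, at 6.31 CPM, lay under the highest wild-type pool, at 7.66 CPM. The call stood at the edge of the threshold. DESeq2 gave an adjusted p of 0.0310, a fit of the injured libraries alone gave 0.134, and the call was lost when any of injured mutant replicates 2, 3 or 4 or injured wild-type replicates 1, 2 or 3 was left out. Without injured mutant replicate 3, its highest pool, the log2 fold change was 1.04.

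Of the marker lists, 2 had summed levels that did not overlap between the injured groups, and they were picked after their values were seen. The macrophage, neutrophil, lymphocyte, fibroblast, endothelial, cardiomyocyte, glial and neuronal, skeletal muscle, erythrocyte, thrombocyte, and osteoblast and chondrocyte lists overlapped. Among single genes, 8.57% of those tested did not overlap, and edgeR called 2.56% between the injured genotypes. In overlapping lists, 3 of 13 skeletal muscle, 2 of 9 erythrocyte and 2 of 17 fibroblast genes were called lower in injured mutants. So were 2 of 23 endothelial and 1 of 8 glial and neuronal genes. Called higher were 1 of 17 macrophage and 1 of 8 thrombocyte genes. Sham genotypes did not overlap in 13.5% of single genes, nor in the skeletal muscle, glial and neuronal, cardiomyocyte and thrombocyte lists. The summed level of smooth muscle and bulbus arteriosus markers was 919 to 1276 CPM in injured mutant pools and 583 to 848 CPM in injured wild-type pools, and 374 to 465 CPM in sham mutant pools and 211 to 376 CPM in sham wild-type pools. Of its 13 genes, 1 had no count in any library; of the 9 tested, 1 was higher and 0 were lower in injured mutants, with a median log2 fold change of 0.23. The gene called was acta2, smooth muscle actin (log2 fold change 1.53, edgeR adjusted p 0.00278). The summed level of epicardial markers was 3604 to 4943 CPM in injured mutant pools and 2428 to 3443 CPM in injured wild-type pools, and 1336 to 1697 CPM in sham mutant pools and 870 to 1274 CPM in sham wild-type pools, so the genotypes did not overlap without injury either. Within it, ANXA2, an annexin, averaged 2697 CPM in injured mutant pools and 1386 CPM in injured wild-type pools. Of the 11 epicardial genes tested, 1 was higher and 2 were lower in injured mutants, with a median log2 fold change of -0.83. The higher gene was ANXA2 (1.1, edgeR adjusted p 0.0132), and the lower genes were the epicardial factors TCF21 (-1.09, adjusted p 0.0141) and TBX18 (-0.93, adjusted p 0.0134). The part of these tissues in the SALL1 difference was not tested.

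No other member passed the threshold between the injured genotypes. The clone si:ch211-194m7.4 had the next smallest p, with means of 9.37 ± 3.39 CPM in injured mutant pools and 3.91 ± 2.45 CPM in injured wild-type pools (SD, n = 4 each) and differed by 1.38 on the log2 scale, with an SE of 0.58 (adjusted p 0.245 by edgeR). For nppc the log2 fold change was 0.70 (SE 0.46, adjusted p 0.494) and for spp1 0.64 (SE 0.37, adjusted p 0.425). On the other side were si:dkey-219e21.2 at -0.72 (SE 0.43, adjusted p 0.443), DCK at -0.62 (SE 0.43, adjusted p 0.524) and ASF1B at -0.57 (SE 0.37, adjusted p 0.480). The spread of lepb left its difference of -0.48 with an SE of 0.76 (adjusted p 0.808), and the difference was 0.30 without injured wild-type replicate 1, its highest pool.

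**Figure D4:**
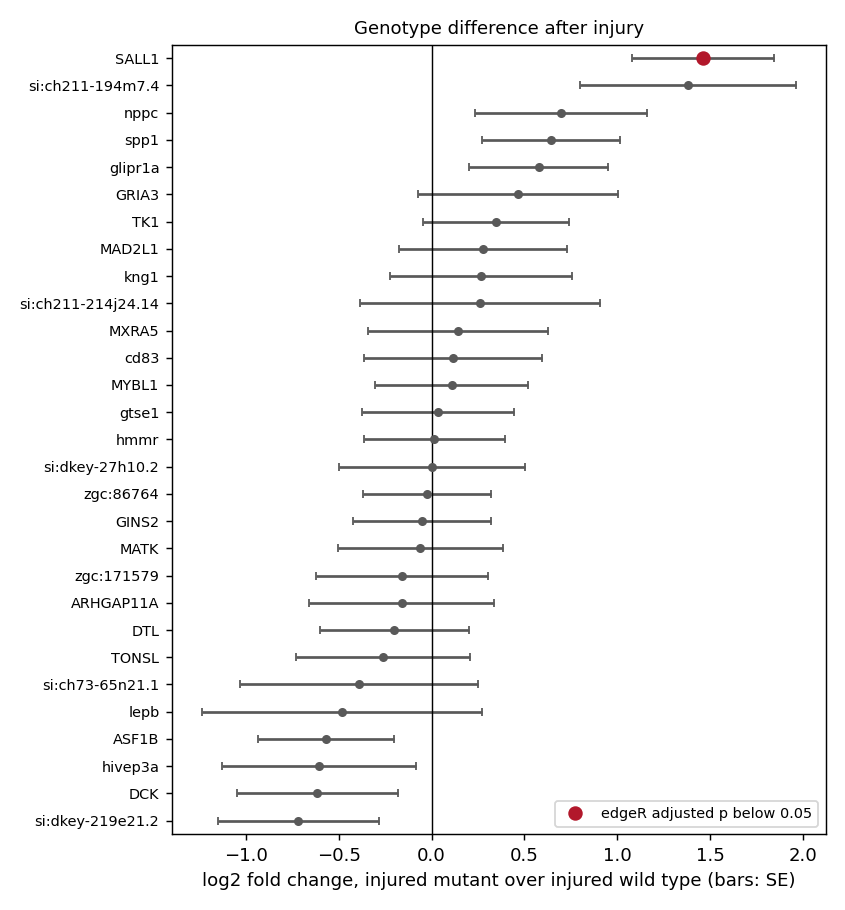
Log2 fold change of each member, injured mutant over injured wild type, with bars of 1 SE from edgeR's fit over all 16 libraries; the red point marks an adjusted p below 0.05. Only SALL1, at 1.46, is marked, and the other members lie on both sides of 0.

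In sham ventricles the limit of 0.5 CPM capped both genotypes, so a large difference between them could not enter the set and the values below are a description. edgeR called 0 of 29 members there, beside 5.81% of all genes tested. At an unadjusted p below 0.05 edgeR found 2 members, nppc and spp1, beside 19.9% of all genes tested, and DESeq2 called 0. The nppc counts were 1, 1, 0 and 0 in sham mutant pools and 2, 5, 3 and 1 in sham wild-type pools (edgeR adjusted p 0.215). In CPM its sham groups did not overlap, as in 13.5% of all genes tested. For spp1 they were 5, 1, 3 and 4 in sham mutant pools and 1, 0, 0 and 2 in sham wild-type pools (adjusted p 0.232). At so few counts, and under that limit, nothing is read from these comparisons.

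The response to injury was compared between genotypes through the interaction term, whose sham and injured levels the limits also bounded. edgeR called 0 of 29 members and 0% of all genes tested. At an unadjusted p below 0.05 there was 1 member, nppc (adjusted p 0.549), beside 7.71% of all genes tested. DESeq2 gave no member an adjusted p for this term. SALL1, the member called between the injured genotypes, had an adjusted p of 0.688 by edgeR. Since the limits bounded every group mean in this term and sham counts were few, nothing is read from these comparisons.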

How the data were processed

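Poly(A)-selected, stranded RNA libraries were made from pools of 3 ventricles, per the labels' protocols. The authors deposited a table of expected counts per gene, which are estimated counts that need not be whole; the submitters' processing notes name fastp 0.23.4, STAR 2.7.0 and 2.7.10 and RSEM 1.3.3. The genome build, the annotation, strand use and the treatment of shared reads are not given in the sources used here. Gene IDs were given symbols by a name table that covers 29201 of 32520 IDs, some in human style.

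Members were chosen on CPM by column sum. Rounded counts were tested with edgeR 4.0.16 (R 4.3.3, limma 3.58.1): TMM scaling, filterByExpr (14986 genes), a fit of 4 group means over 16 libraries and quasi-likelihood F tests with Benjamini-Hochberg adjustment over all genes tested, at 0.05; SE is the log2 fold change over the root of F. The procedure was tested on simulated data, with changes placed in genes of higher counts than many members have and with a fixed spread. That test does not cover genes as rare or as variable as many of the members. Results were recomputed with DESeq2 1.42.0, with RLE scaling, with other low-count filters, on the compared groups alone, with a replicate block and without each library in turn. Folds against sham groups with at most 3 counts in each library are lower bounds at 3 counts per library. They hold for CPM by column sum and would be smaller with TMM scaling. Counting limits cover counting error only. All 29 members were named; non-members were named from pathway and marker lists, and those with values in the text were picked after their values were seen. Members, lists and tests were chosen with earlier results of these data known.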

Additional observations from a re-analysis of the deposited data

Results flagged for a closer look

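Within groups of 4 libraries, 4 values stood apart from the other 3 by a gap above Dixon's critical share of the range. In injured mutants, lepb was 9.12 CPM in replicate 3 and 1.61 to 2.85 CPM in the others, and TONSL was 2.67 CPM in replicate 2 and 3.22 to 3.30 CPM in the others. The coefficient of variation of TONSL in injured mutants was 0.0947, below the 0.208 that counting error alone gives. In injured wild types, MAD2L1 was 1.39 CPM in replicate 3 and 3.64 to 3.91 CPM in the others, and si:ch211-214j24.14 was 14.3 CPM in replicate 1 and 1.32 to 2.51 CPM in the others. Chance flags about 1 in 20 groups, which is 3.6 of the 72 groups checked.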

How the results depend on the processing

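Low counts limit what could be seen: sham libraries held at most 10 counts of a member. The number of members was 9 with a sham limit of 0.25 CPM, 135 with 1 CPM, 76 with an injured limit of 2 CPM, 5 with 5 CPM and 15 with TMM scaling, and 23 to 38 when a library was left out. The number of members called between the injured genotypes was 1, but 0 in a fit of the injured libraries alone, 0 with the replicate block and 0 to 1 when a library was left out; it was 1 with DESeq2, RLE scaling and other filters. Without injured wild-type replicate 1 the lepb log2 fold change, mutant over wild type, was 0.30 (SE 0.76, adjusted p 0.869) and not negative, and over the fits that left out a library it ranged from -1.24, without injured mutant replicate 3, to 0.30. The sham and interaction counts were 0 in all alternatives that gave a value; in a fit of the sham libraries alone no member passed the filter. Whether replicate numbers pair the libraries could not be settled from their correlations. Same-numbered injured mutants and wild types had correlations of deviations of 0.05 to 0.23, and not every library correlated best with its own number. With the block, SALL1 had an adjusted p of 0.109 and a log2 fold change of 1.42. The causes of these changes were not tested.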

Other observations

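The interleukin gene il11a, left out of the set by name and looked at after its values were seen, followed lepb most closely of the 29 members over the 8 injured libraries (r = 0.95, Pearson's r of group-centred log2(CPM + 1)). Its level was 5.37, 8.36, 17.7 and 5.62 CPM in injured mutants and 12.2, 4.38, 3.49 and 9.04 CPM in injured wild types. As with lepb, replicate 3 was the highest injured mutant pool and replicates 1 and 4 were the highest injured wild-type pools. The natriuretic peptide-like gene nppal, also left out by name, had 44.4, 39.7, 45.3 and 29.9 CPM in injured mutants and 132, 3.07, 4.18 and 11.4 CPM in injured wild types, where replicate 1 stood apart.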
